A study of Oryza sativa with 12 samples.

Results

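The ER chaperones and folding enzymes followed here are 10 rice genes named by their LOC_Os identifiers, out of 33780 identifiers in all. They are the Hsp70 chaperone BiP (LOC_Os02g02410, LOC_Os05g35400 and LOC_Os08g09770), the Hsp90 chaperone GRP94 (LOC_Os06g50300), the protein disulfide isomerases PDIL1-1 (LOC_Os11g09280) and PDIL2-3 (LOC_Os09g27830), their oxidase ERO1 (LOC_Os03g52340), and the lectin chaperones calreticulin (LOC_Os07g14270 and LOC_Os03g61670) and calnexin (LOC_Os04g32950). The names came with the list of identifiers, and no table used here pairs the identifiers with names, coordinates or sequences. Genes of the same name are told apart here by the chromosome in the identifier, for example BiP on chromosome 2. The study sequenced RNA of the aboveground tissue of seedlings grown for 3 weeks, from the rice cultivars 93-11 (Indica) and Nipponbare (Nip; Japonica). The 4 groups were 93-11 under heat stress (HS), 93-11 under normal conditions, Nip under HS and Nip under normal conditions, with 3 libraries each. HS seedlings had 36 h at 45 °C, a relative humidity above 80% and light of 60 to 80 μmol per square metre and second, whereas growth light was 800 in that unit, with 10 h of light and 14 h of dark. No normal seedlings at the lower light and higher humidity were described, so heat, light and humidity cannot be told apart in any HS comparison below. The study asked how gene expression changes upon HS in each cultivar and where the cultivars differ.

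Proteins of the secretory pathway fold in the lumen of the ER. BiP binds exposed hydrophobic stretches of new chains, GRP94 acts on later folding intermediates, protein disulfide isomerases form and rearrange disulfide bonds and are reoxidised by ERO1, and calnexin and calreticulin hold glycoproteins through their glucosylated sugars. When unfolded proteins accumulate, plants raise the transcription of such genes through the unfolded protein response, which in Arabidopsis runs through IRE1 and membrane-bound bZIP factors and is known to be triggered by heat. In rice, PDIL1-1 and PDIL2-3 are best known from the endosperm, where they take part in the deposition of storage proteins.

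The values are FPKM, fragments per unit of gene length and of mapped reads, so levels of different genes can be compared within a library. The depth of the libraries cannot be read from these values, and precision rests on the spread of 3 replicates, which were biological replicates in the words of the study. FPKM summed over all genes differed between groups, with 794246 to 810922 in 93-11 HS, 582896 to 617044 in 93-11 normal, 552167 to 561203 in Nip HS and 785851 to 798491 in Nip normal libraries. The sums thus moved upon HS in opposite directions in the cultivars. With every library rescaled to the same sum, the log2 differences of all tested genes shifted by a median of -0.41 in 93-11 and 0.48 in Nip. As a check of the labels, 5 of 5 tested genes of a heat shock list rose in 93-11 and 6 of 6 rose in Nip. Their summed level was 1274 to 1401 FPKM in 93-11 HS, 6.70 to 7.26 in 93-11 normal, 272.3 to 278.0 in Nip HS and 7.24 to 13.1 FPKM in Nip normal libraries. All 5 genes of a leaf list were lower upon HS in both cultivars. By the call defined below, 5 were lower in 93-11 and 4 in Nip, where 27.5% and 17.8% of all tested genes were. The summed level of the leaf list was 1112 to 1150 FPKM in 93-11 HS and 21535 to 23725 FPKM in 93-11 normal libraries. In Nip it was 7687 to 8172 FPKM in HS and 29134 to 30567 FPKM in normal libraries. Each leaf gene was measured in every group, and 0 of the 5 stayed under 1 FPKM in all libraries of a group. A root list of 3 genes summed to 1.75 to 2.12, 16.7 to 17.7, 29.1 to 31.0 and 7.92 to 9.68 FPKM in the same order of groups. In bulk tissue, fewer cells of a type and less RNA per cell cannot be told apart, and the part that the leaf and root lists have in the values below was not tested.

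In 93-11, 9 of the 10 genes were listed and 7 passed the filter of at least 1 FPKM in at least 3 libraries. In Nip, 9 were listed and 8 passed. GRP94 was not listed for 93-11 and BiP on chromosome 8 was not listed for Nip, which left 8 genes listed for both, 7 of them tested between cultivars. No identifier in the files was at 0 in all 6 libraries of a cultivar. GRP94 was 1 of 228 identifiers that were listed for Nip only and had at least 25 FPKM in all 6 Nip libraries, among 4744 listed for Nip only. Whether GRP94 is expressed in 93-11 cannot be read from these values.

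Upon HS, 5 of the 7 tested genes were upregulated in 93-11 (BiP on chromosome 2, PDIL1-1, PDIL2-3, ERO1 and calnexin), by 2.21- to 6.46-fold, and none was called lower by limma. None of the 8 tested genes was upregulated in Nip, where 4 fell (GRP94, PDIL2-3 and both calreticulins) by 2.24- to 4.42-fold. Calreticulin on chromosome 3 passed the filter only through its normal libraries, and without it 3 of 7 fell in Nip. A change was called at a Benjamini-Hochberg adjusted p under 0.01 over all genes tested (limma) and a log2 difference of at least 1 in size. By an unadjusted p under 0.05 of any size, 5 genes were higher and 1 lower in 93-11 (calreticulin on chromosome 3). At that threshold, 9026 of the 20340 genes tested there were higher and 8774 lower. In Nip, 1 gene was higher (PDIL1-1) and 7 were lower, calreticulin on chromosome 3 among them. Of the 20724 genes tested in Nip, 7900 were higher and 8966 lower at that threshold. Calls were frequent in general. In 93-11, 22.7% of 20340 tested genes were called higher and 27.5% lower. In Nip, 9.69% of 20724 were called higher and 17.8% lower. The median log2 difference of the tested genes of this group was 1.58 in 93-11, against 0.028 over all genes tested there, and -0.80 in Nip, against -0.036 over all. Without calreticulin on chromosome 3, a choice made after its values were seen, the medians were 1.62 in 93-11 and -0.48 in Nip. With library sums made equal, 4 genes were called higher in 93-11 and 1 lower (calreticulin on chromosome 3). Of the 20340 genes tested there, 3312 were then called higher and 7163 lower. In Nip, 2 were called lower with equal sums (GRP94 and PDIL2-3), where 2470 of 20724 tested genes were.

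**Figure D1:**
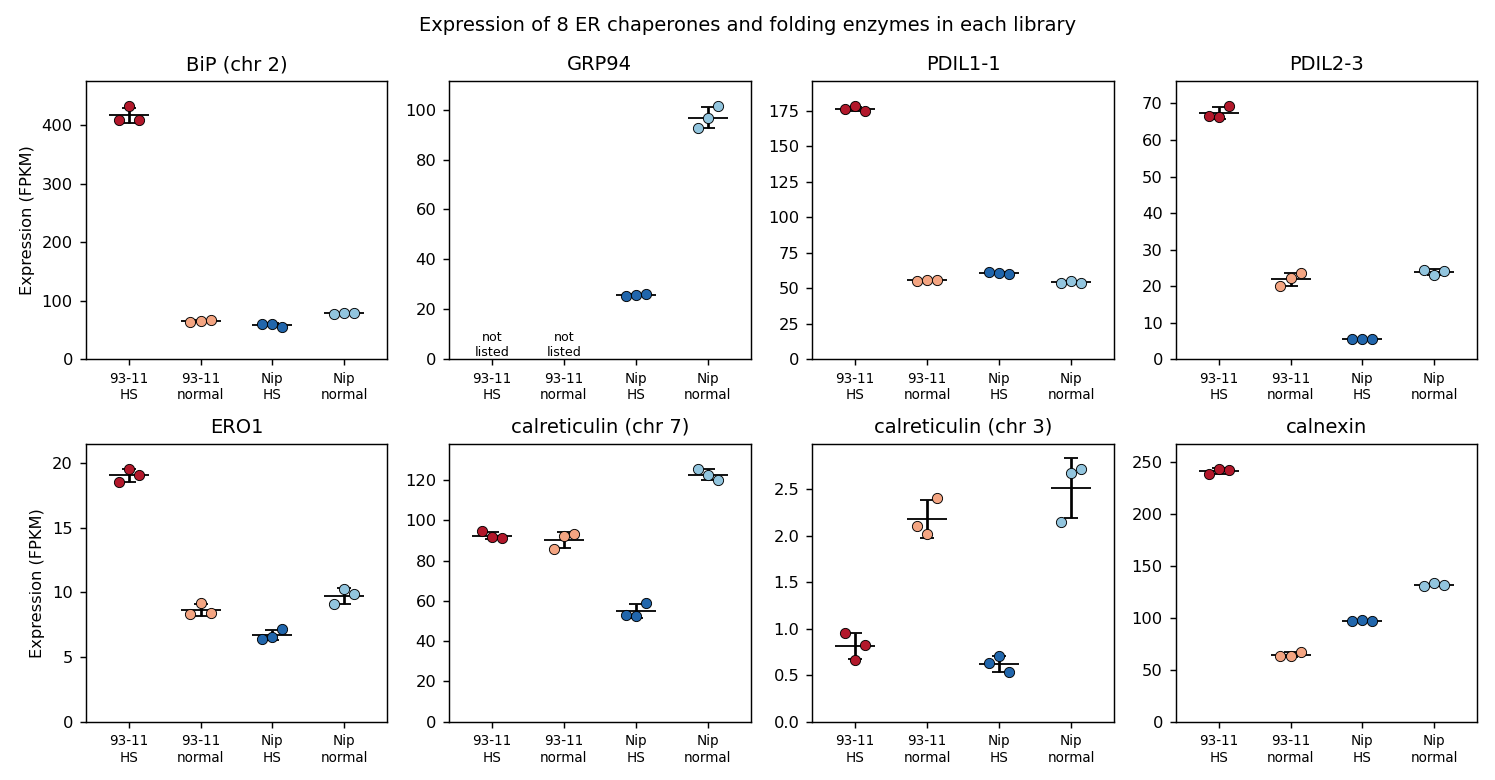
Expression in FPKM (vertical axes, each starting at 0) of the 8 genes that passed the filter in at least 1 cultivar, in the 3 libraries of each group (points), with the mean and SD of the 3 libraries (bars). BiP on chromosome 2, PDIL1-1, PDIL2-3, ERO1 and calnexin are highest in the 93-11 HS libraries, and GRP94 is not listed for 93-11.

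Among the genes followed here for BiP, the Hsp70 of the ER lumen, the one on chromosome 2 (LOC_Os02g02410) had by far the highest level. Its level was 408.8, 432.0 and 408.4 FPKM in the 93-11 HS libraries, against 62.6, 64.7 and 65.9 FPKM in the 93-11 normal libraries. It was 60.4, 59.4 and 55.6 FPKM in the Nip HS libraries, against 77.4, 78.8 and 78.9 FPKM in the Nip normal libraries. The 3 heated 93-11 libraries stood far above the other 9, and the HS values were separate from the normal ones in both cultivars. The mean was 6.46-fold higher upon HS in 93-11 (log2 difference 2.67, standard error 0.041, adjusted p = 1.641e-10, limma), which placed BiP at percentile 96.0 of the log2 differences of all tested genes. In Nip it was 1.34-fold lower upon HS (log2 difference -0.42, standard error 0.039, adjusted p = 1.551e-05, limma), below the size required for a call, and with library sums made equal the log2 difference was 0.084. Within libraries, BiP stood at percentile 99.0 to 99.1 of all expressed identifiers in 93-11 HS and at 93.9 to 94.0 in 93-11 normal, while the ranges in Nip were 93.4 to 94.2 in HS and 93.8 to 94.0 in normal libraries.

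The BiP genes followed here on chromosomes 5 and 8 were near 0. Other rice genes with a BiP name, such as BIP2 on chromosome 3, were not followed. RefSeq places both BIP3 and BIP4 on chromosome 5 and holds no LOC_Os identifiers to match them with. BiP on chromosome 5 therefore means LOC_Os05g35400 alone here. BiP on chromosome 5 (LOC_Os05g35400) had 0.153, 0.0641 and 0.149 FPKM in the 93-11 HS libraries, against 0, 0.0158 and 0 FPKM in the 93-11 normal libraries. In Nip it had 0.0149 FPKM in 1 HS library and was listed at 0 in the other HS libraries and in all 3 normal ones. BiP on chromosome 8 (LOC_Os08g09770) had 0.0261 FPKM in 1 library of 93-11 HS and was listed at 0 in the other 5 libraries of that cultivar. Neither gene passed the filter, and neither was tested. How reads that match several BiP genes entered the FPKM values is not given in the sources used here, so the split between these genes is uncertain.

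GRP94 (LOC_Os06g50300), the Hsp90 of the ER, was measured in Nip only. It had 25.2, 25.6 and 26.1 FPKM in the Nip HS libraries, against 92.7, 96.5 and 101.3 FPKM in the Nip normal libraries. The groups were far apart, with means 3.78-fold lower upon HS (log2 difference -1.88, standard error 0.042, adjusted p = 2.032e-09, limma), at percentile 6.30 of all log2 differences in Nip. The ratio of BiP on chromosome 2 to GRP94, which is free of the scaling between libraries, was 2.28 ± 0.137 in Nip HS and 0.810 ± 0.028 in Nip normal libraries (SD, n = 3 each). GRP94 thus stood above BiP in each normal Nip library and below it in each heated one.

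PDIL1-1 (LOC_Os11g09280), a protein disulfide isomerase, rose in 93-11. It had 176.2, 178.3 and 175.3 FPKM in the 93-11 HS libraries, against 55.2, 55.9 and 55.8 FPKM in the 93-11 normal libraries. In Nip the values were 61.1, 60.9 and 60.3 FPKM in the HS libraries, against 53.9, 55.4 and 53.7 FPKM in the normal libraries. The 93-11 means differed 3.17-fold (log2 difference 1.65, standard error 0.035, adjusted p = 9.103e-10, limma). The Nip libraries did not overlap either, and their means differed 1.12-fold as deposited (log2 difference 0.16, standard error 0.032, adjusted p = 0.00171, limma), which is below the size required. That difference was 0.54 with quantile normalization and 0.66 with equal library sums, still below it. PDIL1-1 was the single tested gene of this group with a higher mean upon HS in both cultivars under each of the 4 scalings tried.

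PDIL2-3 (LOC_Os09g27830), another disulfide isomerase, was called in opposite directions in the cultivars. It had 66.5, 66.2 and 69.2 FPKM in the 93-11 HS libraries, against 20.0, 22.1 and 23.5 FPKM in the 93-11 normal libraries. In Nip it had 5.43, 5.42 and 5.37 FPKM in the HS libraries, against 24.5, 23.0 and 24.2 FPKM in the normal libraries. The normal levels of the cultivars lay close together, and the HS levels lay on either side of them. The gene rose 3.08-fold in 93-11 (log2 difference 1.58, standard error 0.063, adjusted p = 3.601e-08, limma) and fell in Nip, with a mean 4.42-fold lower (log2 difference -1.96, standard error 0.054, adjusted p = 6.956e-09, limma). Both calls were kept under the other scalings. The ratio of PDIL1-1 to PDIL2-3 within a library was 2.62 ± 0.083 in 93-11 HS and 2.56 ± 0.201 in 93-11 normal libraries, which overlap, whereas it was 11.2 ± 0.021 in Nip HS and 2.28 ± 0.113 in Nip normal libraries (SD, n = 3 each).

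ERO1 (LOC_Os03g52340), which passes electrons from disulfide isomerases to oxygen, had lower levels than the isomerases in 93-11. It had 18.6, 19.5 and 19.1 FPKM in the 93-11 HS libraries, against 8.32, 9.17 and 8.42 FPKM in the 93-11 normal libraries. In Nip it had 6.40, 6.55 and 7.15 FPKM in the HS libraries, against 9.07, 10.3 and 9.86 FPKM in the normal libraries. Groups did not overlap in either cultivar, with the HS libraries above the normal ones in 93-11 and below them in Nip. The rise in 93-11 was 2.21-fold (log2 difference 1.06, standard error 0.064, adjusted p = 4.963e-07, limma), and with equal library sums it dropped under the size required (0.68). In Nip the mean was 1.45-fold lower upon HS (log2 difference -0.48, standard error 0.074, adjusted p = 3.492e-04, limma), which was not called. With equal library sums the Nip libraries overlapped, with a log2 difference of -0.030.

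**Figure D2:**
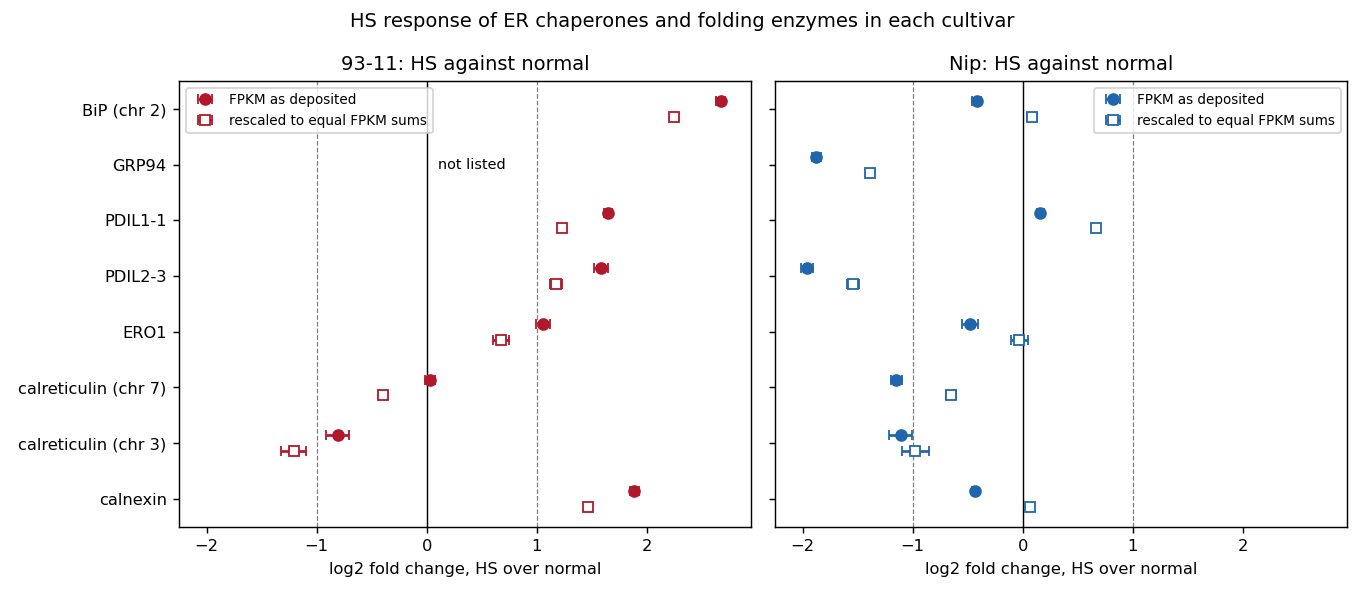
Log2 difference between HS and normal libraries (horizontal axes, FPKM + 1) of each tested gene in 93-11 (left) and Nip (right), with bars of 1 standard error from limma; filled circles are the values as deposited and open squares those with all libraries rescaled to the same FPKM sum. In 93-11, BiP on chromosome 2 lies farthest to the right at 2.67, and in Nip, PDIL2-3 and GRP94 lie farthest to the left at -1.96 and -1.88; calreticulin on chromosome 7 in 93-11 and BiP and calnexin in Nip change sign with the rescaling.

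Calnexin (LOC_Os04g32950), the lectin chaperone anchored in the ER membrane, rose in 93-11. It had 238.6, 243.6 and 242.6 FPKM in the 93-11 HS libraries, against 63.3, 63.3 and 67.2 FPKM in the 93-11 normal libraries. In Nip it had 96.8, 97.9 and 97.1 FPKM in the HS libraries, against 131.0, 133.3 and 131.8 FPKM in the normal libraries. The 93-11 means differed 3.74-fold (log2 difference 1.89, standard error 0.040, adjusted p = 8.593e-10, limma). The Nip mean was 1.36-fold lower upon HS (log2 difference -0.44, standard error 0.027, adjusted p = 1.076e-06, limma), below the size required, and the sign turned to 0.066 both with quantile normalization and with equal library sums.

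Calreticulin on chromosome 7 (LOC_Os07g14270), the soluble counterpart of calnexin, did not share the response of calnexin in 93-11. It had 94.6, 91.9 and 91.0 FPKM in the 93-11 HS libraries, against 86.0, 92.1 and 93.3 FPKM in the 93-11 normal libraries. In Nip it had 53.1, 52.5 and 58.9 FPKM in the HS libraries, against 125.5, 122.5 and 120.2 FPKM in the normal libraries. The 93-11 libraries overlapped, with a log2 difference of 0.033 and a 95% interval of -0.071 to 0.14 (adjusted p = 0.508, limma), and the sign was negative with quantile normalization (-0.20), with equal library sums (-0.40) and without 93-11 normal replicate 1 (-0.0030). In Nip the gene fell 2.24-fold (log2 difference -1.15, standard error 0.048, adjusted p = 8.738e-08, limma), a call that was lost with quantile normalization (-0.71) and with equal library sums (-0.65). Within libraries, the ratio of calnexin to calreticulin on chromosome 7 was 2.61 ± 0.078 in 93-11 HS and 0.715 ± 0.025 in 93-11 normal libraries, and 1.78 ± 0.115 in Nip HS and 1.08 ± 0.028 in Nip normal libraries (SD, n = 3 each). The balance between the lectin chaperones therefore moved toward calnexin in both cultivars without overlap.

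Calreticulin on chromosome 3 (LOC_Os03g61670) was low throughout. It had 0.951, 0.664 and 0.823 FPKM in the 93-11 HS libraries, against 2.10, 2.02 and 2.41 FPKM in the 93-11 normal libraries. In Nip it had 0.632, 0.705 and 0.532 FPKM in the HS libraries, against 2.14, 2.67 and 2.71 FPKM in the normal libraries. HS libraries were below normal ones in both cultivars, and the gene passed the filter in each cultivar only through its normal libraries, so that its direction there is no support for a change. The log2 difference was -0.81 in 93-11 (standard error 0.103, adjusted p = 7.624e-05, limma), not called, and -1.11 in Nip (standard error 0.108, adjusted p = 1.942e-05, limma), called lower. On the log2(FPKM + 1) scale such low values are drawn together. With a pseudocount of 0.1 the 93-11 difference was -1.33, past the size required. With equal library sums it was -1.21 in 93-11, past that size, and -0.98 in Nip, under it.

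**Figure D3:**
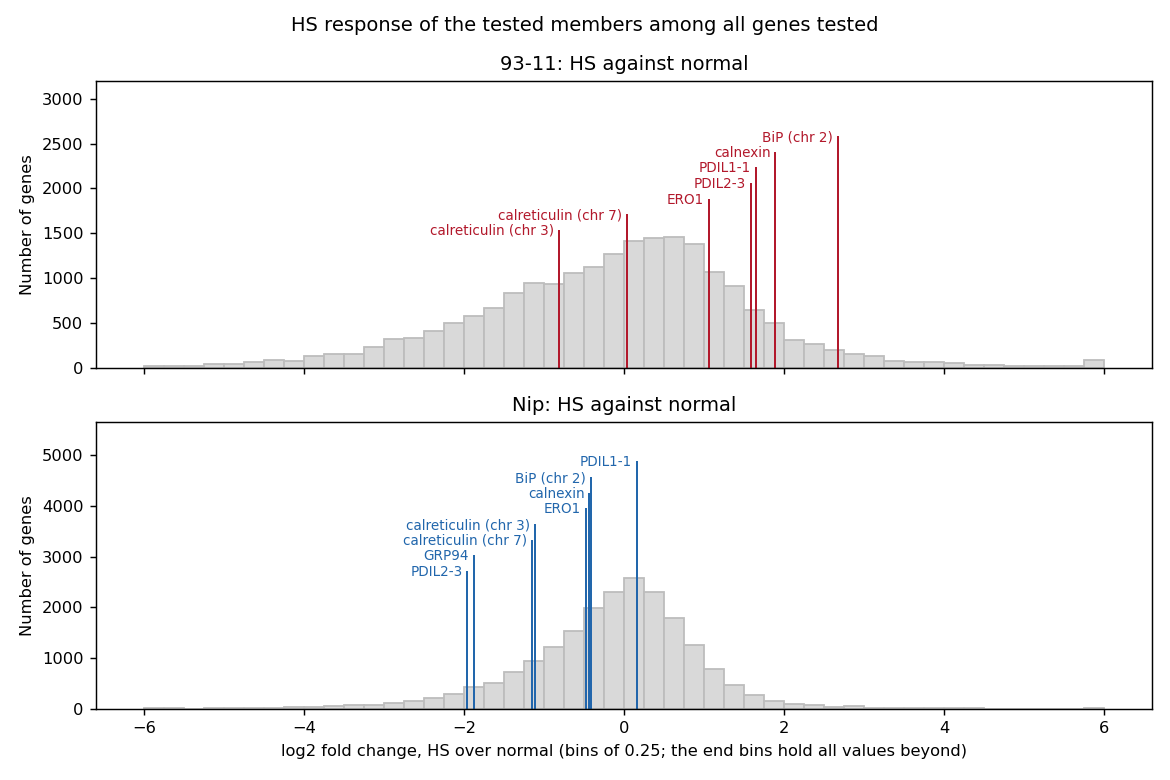
Number of genes (vertical axes) by log2 difference between HS and normal libraries (horizontal axis, bins of 0.25) for all 20340 genes tested in 93-11 (top) and all 20724 tested in Nip (bottom), with a line at each tested ER chaperone or folding enzyme. In 93-11, 5 of 7 lines lie at or above 1.06. In Nip, 4 of 8 lie at or below -1.11, of which calreticulin on chromosome 3 passed the filter only through its normal libraries. With equal library sums, the log2 differences of all genes shift by a median of -0.41 in 93-11 and 0.48 in Nip.

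The order of levels within a group also changed. In 93-11 HS libraries, BiP on chromosome 2 was highest, followed by calnexin, PDIL1-1, calreticulin on chromosome 7, PDIL2-3, ERO1 and calreticulin on chromosome 3, with no overlap between neighbours. In 93-11 normal libraries, calreticulin on chromosome 7 came first, and calnexin and BiP, next in order, overlapped. In Nip HS libraries, calnexin came first, PDIL1-1, BiP and calreticulin on chromosome 7 overlapped as neighbours, and GRP94, ERO1 and PDIL2-3 followed. In Nip normal libraries the order was calnexin, calreticulin on chromosome 7, GRP94, BiP, PDIL1-1, PDIL2-3 and ERO1. PDIL2-3 stood above ERO1 in the other 3 groups and below it in Nip HS, at percentile 48.2 to 48.7 of expressed identifiers in Nip HS against 77.7 to 79.0 in Nip normal libraries.

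Summed over the listed genes of the group, expression was 1014 ± 15.5 FPKM in 93-11 HS and 307.8 ± 9.62 FPKM in 93-11 normal libraries, a ratio of 3.30. In Nip the sum was 309.7 ± 1.17 FPKM in HS and 520.5 ± 3.63 FPKM in normal libraries, a ratio of 0.595 (SD, n = 3 each). With library sums made equal the ratios were 2.44 in 93-11 and 0.846 in Nip. The Nip sums include GRP94 (25.6 FPKM in HS and 96.8 FPKM in normal libraries on average), and the 93-11 sums do not. Over the 8 genes listed for both cultivars, the Nip sums as deposited were 284.1 ± 0.812 FPKM in HS and 423.7 ± 2.27 FPKM in normal libraries. Over the 8 genes listed for both cultivars, the sum with each library's total FPKM set to 1000000 was 1261 ± 15.6 in 93-11 HS, 516.0 ± 7.57 in 93-11 normal, 511.2 ± 3.21 in Nip HS and 536.1 ± 7.42 in Nip normal libraries (SD, n = 3 each). On that scale the heated 93-11 libraries stood apart, and the other 3 groups lay between 507.8 and 542.0.

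**Figure D4:**
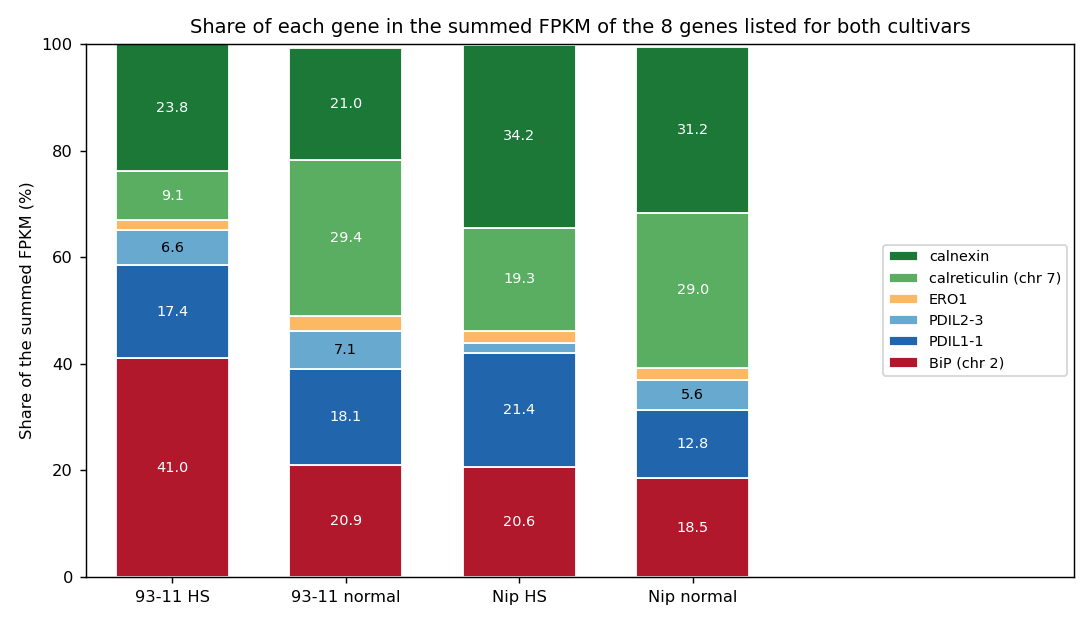
Mean share (vertical axis, percent, 3 libraries a group) of each gene in the summed FPKM of the 8 genes listed for both cultivars; calreticulin on chromosome 3 and BiP on chromosome 5, together under 1%, are not drawn. BiP on chromosome 2 takes 41.0% in 93-11 HS and 18.5% to 20.9% in the other groups.

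Shares of that sum, which do not depend on the scaling between libraries, describe the makeup of the group. BiP on chromosome 2 held 41.0% ± 0.703 in 93-11 HS and 20.9% ± 0.112 in 93-11 normal libraries, and 20.6% ± 0.945 in Nip HS and 18.5% ± 0.235 in Nip normal libraries. Calreticulin on chromosome 7 held 9.12% ± 0.266 in 93-11 HS and 29.4% ± 0.446 in 93-11 normal libraries, and 19.3% ± 1.19 in Nip HS and 29.0% ± 0.584 in Nip normal libraries. Its share was lower upon HS in both cultivars, without overlap. PDIL1-1 held 17.4% ± 0.134 in 93-11 HS and 18.1% ± 0.476 in 93-11 normal libraries, but 21.4% ± 0.197 in Nip HS and 12.8% ± 0.151 in Nip normal libraries. Calnexin held 23.8% ± 0.254, 21.0% ± 0.451, 34.2% ± 0.261 and 31.2% ± 0.201 in 93-11 HS, 93-11 normal, Nip HS and Nip normal libraries (SD, n = 3 each). The ratio of BiP on chromosome 2 to calnexin was 1.72 ± 0.046 in 93-11 HS and 0.998 ± 0.022 in 93-11 normal libraries, whereas the Nip values overlapped at 0.601 ± 0.026 in HS and 0.594 ± 0.005 in normal libraries. The ratio of PDIL1-1 to ERO1 was higher upon HS in both cultivars, at 9.27 ± 0.201 in 93-11 HS and 6.45 ± 0.309 in 93-11 normal, and 9.10 ± 0.582 in Nip HS and 5.59 ± 0.311 in Nip normal libraries (SD, n = 3 each).

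The difference between the cultivars in their HS response was put to a test of its own, the cultivar-by-treatment interaction, for which the 12 libraries were fitted together. It was called for 6 of the 7 tested genes, each with the more positive response in 93-11, where 20.9% of 19583 tested genes were called in that direction and 19.6% in the other. The log2 difference between responses was 3.54 for PDIL2-3 (standard error 0.079, adjusted p = 8.223e-13, limma), 3.09 for BiP on chromosome 2 (standard error 0.055, adjusted p = 1.436e-13, limma) and 2.32 for calnexin (standard error 0.044, adjusted p = 2.126e-13, limma). These 3 calls were kept under each of the 3 other scalings, with values of 2.72 to 3.48 for PDIL2-3, 2.16 to 3.04 for BiP and 1.39 to 2.28 for calnexin. For ERO1 it was 1.54, for PDIL1-1 1.49 and for calreticulin on chromosome 7 1.18. With library sums made equal, these 3 were at 0.70, 0.56 and 0.25, under the size required. The other 3 were then called, where 1814 of 19583 tested genes were called higher and 8287 lower. That scaling shifted the log2 differences of all genes in this comparison by a median of -0.89. With quantile normalization, PDIL1-1 (0.69) and calreticulin on chromosome 7 (0.56) were also under the size required. Calreticulin on chromosome 3 had a difference of 0.30 with a 95% interval of -0.0056 to 0.61 (adjusted p = 0.0669, limma), not called, and turned to -0.25 with equal sums.

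**Figure D5:**
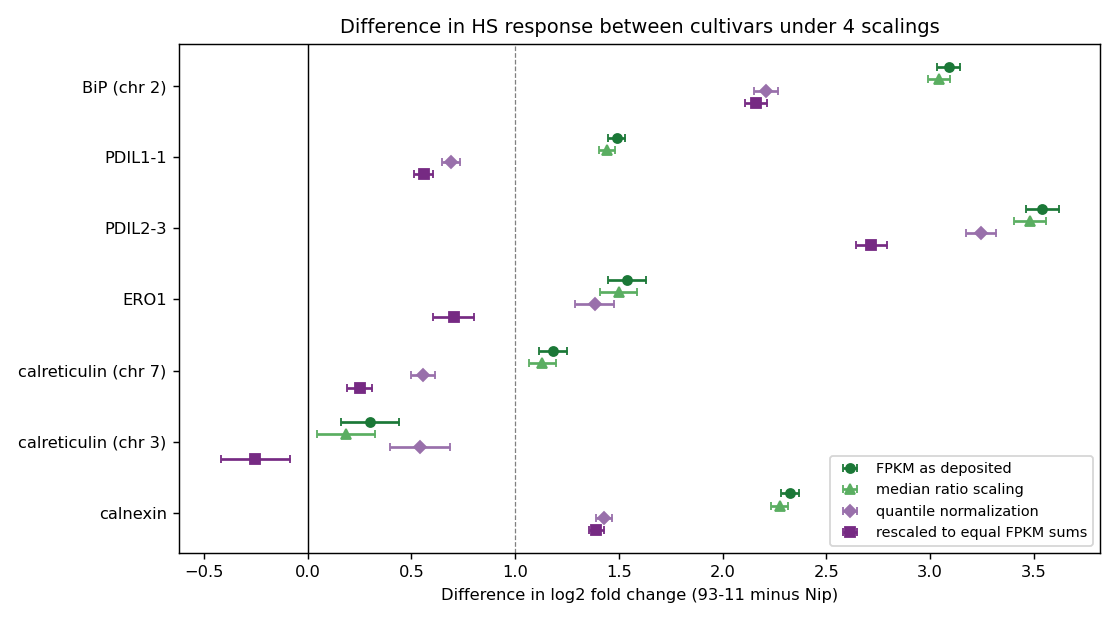
Difference in HS response between the cultivars (horizontal axis, log2 difference of 93-11 minus that of Nip) for the 7 genes tested in both, under 4 scalings of the libraries, with bars of 1 standard error. BiP on chromosome 2, PDIL2-3 and calnexin lie above 1 under all 4 scalings, and calreticulin on chromosome 3 lies below 0 with equal FPKM sums.

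Directly compared, the cultivars differed more in HS than in normal libraries, in comparisons that use the same libraries as those above. In HS libraries, 5 of 7 tested genes were called higher in 93-11 than in Nip, where 16.5% of all tested genes were called higher and 27.2% lower. The log2 differences were 3.41 for PDIL2-3, 2.81 for BiP on chromosome 2, 1.52 for PDIL1-1, 1.38 for ERO1 and 1.30 for calnexin, and those of ERO1 (0.95) and calnexin (0.80) were under the size required with equal library sums, as was calnexin (0.70) with quantile normalization. Calreticulin on chromosome 7 had 0.74 and calreticulin on chromosome 3 0.16, neither called, but with median ratio scaling calreticulin on chromosome 7 was called higher in 93-11 (1.03). In normal libraries, calnexin was the 1 gene of 7 called, lower in 93-11 at 64.6 ± 2.27 FPKM against 132.1 ± 1.14 FPKM in Nip (SD, n = 3 each; log2 difference -1.02, standard error 0.031, adjusted p = 1.396e-11, limma), where 13.4% of all tested genes were called lower and 7.14% higher. That call was lost under each of the 3 other scalings (-0.73, -0.59 and -0.69). As deposited, the normal libraries of the cultivars overlapped for PDIL1-1 (log2 difference 0.034, 95% interval -0.029 to 0.096), PDIL2-3 (-0.13, -0.25 to -0.0034) and ERO1 (-0.16, -0.30 to -0.015), and for PDIL2-3 and ERO1 the sign was positive under each other scaling. For PDIL1-1 the difference was 0.33 with quantile normalization, 0.47 with equal library sums and 0.36 with median ratio scaling, under the size required. With equal sums, 93-11 stood above Nip without overlap for PDIL1-1, PDIL2-3 and ERO1. Reads of each cultivar were aligned to its own genome, so a difference in how a gene is mapped cannot be told apart from one in expression between cultivars.

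A further list of 17 identifiers assigned to ER folding, ER-associated degradation and ER stress signalling was counted without names, since none of them is annotated in the tables used here. In 93-11, 6 of 14 tested were higher and 3 lower upon HS, where 22.7% and 27.5% of all tested genes were, and the median log2 difference was 0.67. In Nip, 0 of 15 were called higher and 3 lower by limma, where 9.69% and 17.8% of all tested genes were, and the median was -0.45. By an unadjusted p under 0.05 of any size, 5 were higher and 10 lower in Nip, where 7900 and 8966 of 20724 tested genes were. The interaction was called higher in 93-11 for 5 of 14 and lower for 1, where 20.9% and 19.6% of all tested genes were. Chosen after its value was seen, LOC_Os06g41770 had 159.0 ± 5.39 FPKM in 93-11 HS and 11.6 ± 1.15 FPKM in 93-11 normal libraries (log2 difference 3.67, standard error 0.069, adjusted p = 4.271e-10, limma), against 9.61 ± 0.704 FPKM in Nip HS and 13.5 ± 0.272 FPKM in Nip normal libraries (SD, n = 3 each), with an interaction of 4.12. LOC_Os05g43170, chosen likewise, fell in both cultivars, with a log2 difference of -2.18 in 93-11 (adjusted p = 9.895e-09, limma) and -2.80 in Nip (adjusted p = 4.595e-10, limma).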

How the data were processed

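RNA-seq was made from poly(A) RNA with a stranded kit, in 12 libraries of 4 groups. Expression was deposited as FPKM values, 1 for each gene in a library. The study describes alignment with STAR, each cultivar against its own genome, and counting with featureCounts for DESeq2, while the submitters' processing notes name HISAT2 2.0.4, StringTie 1.3.4d and DESeq2. Which of these gave the FPKM values, and the genome builds and annotation versions, are not given in the sources used here. No counts per gene were used, and the study's read statistics per library are not used here, so no counting interval is given.

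FPKM values were tested as log2(FPKM + 1) with limma 3.58.1 (R 4.3.3), with a prior that follows expression, for genes that reached 1 FPKM in 3 or more libraries of the fit. The change of low genes is understated on this scale. Each cultivar was fitted alone (6 libraries), and comparisons between cultivars were fitted over all 12 libraries and the 23715 identifiers listed for both. Calls required a log2 difference of 1 or more in size with a Benjamini-Hochberg adjusted p below 0.01. The fits were also run on simulated data with changes planted only in genes of higher expression. Those data do not cover low genes or the scaling between libraries. Percentiles, ratios, shares and sums were computed with Python 3.11.15 and carry no test. Fold changes are ratios of group means of FPKM. The named genes are all 10 members of the group, and other identifiers appear as counts, except 2 of the ER pathway list chosen after their values were seen. The members and lists were chosen with earlier results of these data known, so none of the lists is independent evidence. The heat shock, leaf, root and ER pathway lists were written from background knowledge, and the RefSeq table used here (39387 genes) holds 0 of the LOC_Os identifiers. Alternatives were a pseudocount of 0.1, no filter, quantile normalization, library sums of 1000000, median ratio scaling, a replicate block, each library left out in turn, all 12 libraries in one fit, and an adjusted p of 0.05. The labels give no batch.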

Additional observations from a re-analysis of the deposited data

Results flagged for a closer look

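The HS response differed between cultivars, by the interaction term over all 12 libraries, for 6 of the 7 genes tested. Each had the more positive response in 93-11, where 20.9% of 19583 tested genes were called in that direction and 19.6% in the other. The log2 difference (93-11 minus Nip) was 3.54 for PDIL2-3, 3.09 for BiP on chromosome 2, 2.32 for calnexin, 1.54 for ERO1, 1.49 for PDIL1-1 and 1.18 for calreticulin on chromosome 7. With equal library sums, ERO1 (0.70), PDIL1-1 (0.56) and calreticulin on chromosome 7 (0.25) were under the size required. With quantile normalization, PDIL1-1 (0.69) and calreticulin on chromosome 7 (0.56) were too. PDIL2-3 was called higher upon HS in 93-11 and lower in Nip. BiP, calnexin, ERO1 and PDIL1-1 were called higher upon HS in 93-11 and not called in Nip. Their log2 differences in Nip were -0.42, -0.44, -0.48 and 0.16, and with equal library sums 0.084, 0.066, -0.030 and 0.66. Calreticulin on chromosome 7 was called lower in Nip and not called in 93-11, where it was at 0.033. No group here had 4 or more libraries, so single libraries were not screened for outlying values.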

How the results depend on the processing

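Of 929 alternative values, 535 for single genes kept their direction and side of the threshold, 19 reversed, 15 were weaker and 3 stronger. Of the counts, sums and medians, 338 stayed within 1.5 times or the spread, lost calls among them, and 19 did not. With library sums made equal, 3312 genes were called higher upon HS and 7163 lower in 93-11 (31.6% of calls higher, 45.3% as deposited). In Nip, 4871 and 2470 were (66.4% higher, 35.3% as deposited and 45.8% with quantile normalization). The interaction then gave 1814 higher and 8287 lower (18.0% higher, 51.6% as deposited). Between cultivars, HS libraries then gave 2348 higher and 8118 lower (22.4% higher, 37.8% as deposited, 48.7% with quantile normalization or median ratio scaling). Normal libraries gave 2609 and 1681 with equal sums (60.8% higher, 34.8% as deposited). In normal libraries, quantile normalization gave 2055 higher and 1680 lower (55.0% higher), and median ratio scaling 2038 and 1640 (55.4% higher). Median ratio scaling shifted all log2 differences between cultivars by a median of 0.25 in HS and 0.30 in normal libraries. Quantile normalization shifted them by 0.25 and 0.29.

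Equal sums left 3 chaperones or folding enzymes higher by the interaction (6 as deposited), where 1814 of 19583 tested genes were. In HS libraries 3 were higher in 93-11 (was 5), where 2348 of 19583 were. In Nip 2 were lower upon HS (was 4), where 2470 of 20724 were. In 93-11, 1 was lower (was 0), as with a pseudocount of 0.1, where 7163 and 6221 of 20340 were. The normal-library call of calnexin was lost (0 lower) under quantile normalization, equal sums and median ratio scaling. With equal sums the ratio of summed FPKM was 2.44 in 93-11 and 0.846 in Nip, where the sum includes GRP94. Signs reversed for calreticulin on chromosome 7 in 93-11 (-0.20 with quantile normalization, -0.40 with equal sums, -0.0030 without 93-11 normal replicate 1, and up to 0.055 without another library), and in Nip for calnexin (0.066 with quantile normalization, 0.066 with equal sums) and BiP on chromosome 2 (0.084 with equal sums). With equal sums, calreticulin on chromosome 3 turned to -0.25 in the interaction and to -0.068 between cultivars in HS libraries. Between cultivars in normal libraries, the values with quantile normalization, equal sums and median ratio scaling were 0.21, 0.30 and 0.20 for PDIL2-3, 0.19, 0.25 and 0.15 for ERO1 and 0.056, 0.18 and 0.092 for calreticulin on chromosome 3, and BiP on chromosome 2 had 0.15 with equal sums and 0.052 with median ratio scaling. None of the reversed values had been called as deposited. Without calreticulin on chromosome 3, an alternative added after seeing the data, the median in Nip was -0.48 (-0.80 with it), and the other medians and all counts of called genes stayed within 1.5 times.

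Leaving out 1 library in turn changed no call of these genes. Over all pairs of groups, deviations of same-numbered libraries had correlations of -0.06 to 0.05, against -0.07 to 0.08 for other numbers. Between Nip HS and Nip normal, same numbers gave 0.034 to 0.042 and other numbers -0.043 to 0.0051. Between 93-11 HS and 93-11 normal, the 2 ranges overlapped. Correlations this small cannot decide whether the numbers pair the samples. With replicate number as a block, 4633 genes were called higher and 5593 lower in 93-11, and 2014 and 3691 in Nip. The block changed no call of these genes. In this balanced design it can change the standard errors but not the log2 differences, so BiP on chromosome 2 in 93-11 stayed at 2.67. Read counts per gene were not used here, so the precision of the low genes (calreticulin on chromosome 3, BiP on chromosomes 5 and 8) cannot be separated into counting and biological parts.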
